A study of Mus musculus with 4 samples.

Results

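Costimulatory receptors and receptors of the tumour necrosis factor (TNF) receptor superfamily were examined in CD8+ T cells that lack Bcl-3, a nuclear regulator of NF-kB. The 9 genes were chosen by symbol: Cd27, Cd28, Icos, Tnfrsf4, Tnfrsf9, Tnfrsf18, Tnfrsf1a, Tnfrsf1b and Fas. They are 9 of the 27998 genes listed in the counts, and all 9 passed the filter on low counts when cells of a library were summed. Sublethally irradiated Rag1-/- hosts, which lack T and B cells of their own, had received a mixture of congenic WT (CD45.1) and Bcl3-/- (CD45.2) bone marrow on a C57bl/6 background, and spleens were taken on day 8 of infection with the Armstrong strain of lymphocytic choriomeningitis virus (LCMV). CD8+ T cells that bind the H-2Db tetramer loaded with the viral peptide GP33 were sorted by genotype from 2 such chimeras. This gave 4 single-cell libraries (n = 2 per genotype), named WT1 and KO1 for chimera 1, and WT2 and KO2 for chimera 2, where KO stands for Bcl3-/-. No age of the animals is given in the sources used here, and all blood cells that grew from the Bcl3-/- marrow carry the deletion.

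CD28 and ICOS belong to the immunoglobulin superfamily and bind B7-family ligands on antigen-presenting cells, adding a second signal to that of the T cell receptor. CD27, OX40 (Tnfrsf4), 4-1BB (Tnfrsf9) and GITR (Tnfrsf18) are TNF receptors without a death domain. They recruit TRAF adaptors and, through these, activate NF-kB, which supports survival and proliferation of activated T cells. TNFR1 (Tnfrsf1a) and FAS carry a death domain and can start apoptosis, while TNFR2 (Tnfrsf1b) has none and signals through TRAFs.

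Of the 9 genes, 4 lie on chromosome 4 in GENCODE vM21 on the GRCm38 build. Tnfrsf4 (156013843 to 156016612, plus strand) and Tnfrsf18 (156026164 to 156028895, plus strand) are neighbours there, 9552 bases apart, and Tnfrsf9 (150914562 to 150946102, plus strand) and Tnfrsf1b (145213463 to 145246870, minus strand) lie further off. Cd28 (60716800 to 60773359) and Icos (60977927 to 61000320) are both on the plus strand of chromosome 1, 204568 bases apart. Cd27 (125232622 to 125237010, minus strand) and Tnfrsf1a (125349362 to 125362484, plus strand) are on chromosome 6, and Fas (34290666 to 34327772, plus strand) is on chromosome 19. Cd27, Icos and Fas each overlap another annotated gene on the same strand (Mir8113, Gm37039 and Gm27818), and reads there may not be told apart.

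The promoter windows of Tnfrsf9, Tnfrsf4 and Tnfrsf18 are shown because these 3 costimulatory TNF receptors, all on chromosome 4, were lower in Bcl3-/- cells in both chimeras. The windows were taken from RefSeq on GRCm38.p6 and run from 250 bases before to 50 bases after a transcript start, all on the plus strand, and they lie at chr4:150927749-150928048, chr4:156013445-156013744 and chr4:156026072-156026371. Capitals mark matches to the NF-kB consensus, a motif of 10 bases searched on both strands, whose matches may overlap each other. The Tnfrsf4 window ends before the GENCODE start of that gene (156013843) and does not cover it. For Tnfrsf9, which has another window, the one with matches is shown.

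Tnfrsf9: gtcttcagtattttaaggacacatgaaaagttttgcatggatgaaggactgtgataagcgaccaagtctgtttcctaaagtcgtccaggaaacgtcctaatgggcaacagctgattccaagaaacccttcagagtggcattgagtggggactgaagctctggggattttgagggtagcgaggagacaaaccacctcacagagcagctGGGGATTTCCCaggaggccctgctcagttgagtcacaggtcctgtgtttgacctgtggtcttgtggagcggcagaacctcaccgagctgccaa

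Tnfrsf4: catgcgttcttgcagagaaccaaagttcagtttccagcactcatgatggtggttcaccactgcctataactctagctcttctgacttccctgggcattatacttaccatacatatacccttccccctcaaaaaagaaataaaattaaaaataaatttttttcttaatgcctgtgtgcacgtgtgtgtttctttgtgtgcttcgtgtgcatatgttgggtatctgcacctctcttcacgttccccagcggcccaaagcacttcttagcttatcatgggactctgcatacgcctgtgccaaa

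Tnfrsf18: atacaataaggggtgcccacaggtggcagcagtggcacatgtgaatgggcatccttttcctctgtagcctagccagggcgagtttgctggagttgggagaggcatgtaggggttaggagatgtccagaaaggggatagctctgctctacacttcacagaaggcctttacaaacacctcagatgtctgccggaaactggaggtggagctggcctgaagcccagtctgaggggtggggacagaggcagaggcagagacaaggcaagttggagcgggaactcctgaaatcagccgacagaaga

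The Tnfrsf9 window held 3 overlapping matches, GGGGATTTCC, GGGATTTCCC and, on the other strand, GGGAAATCCC. None of the other 7 windows of the receptors, which include another start of Tnfrsf9, held one. The entries cover 7 of the 9 genes, without Cd28 and Icos. Over the genome, 2779 of 32851 windows of this length (8.46%) held the consensus, so that a match is a description of the sequence only.

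In this assay the 3′ ends of transcripts are captured in droplets and tagged with a cell barcode and a unique molecular identifier (UMI), by which copies of a molecule are counted once. Cells had to hold at least 500 genes, with mitochondrial UMIs at most 10%, which left 4941 for WT1, 5366 for KO1, 8092 for WT2 and 6494 for KO2. The libraries held 21193300, 22922219, 20358780 and 22672343 UMIs in that order, and the median UMI count per cell was lowest in WT2 at 2019, against 3571 in WT1, 3620.5 in KO1 and 2948 in KO2. Levels are given in CPM, the usual scaling of the UMIs of a gene to those of all genes, summed over the cells of a library or over its cells in 1 state. In such sums, fewer cells that express a gene cannot be told apart from less RNA per cell. CD8 is the defining marker of the sort. A UMI of Cd8a or Cd8b1 was found in 98.0% of cells in WT1, 98.1% in KO1, 94.4% in WT2 and 97.3% in KO2. Clusters named below as B-like (51.7% to 80.6% of cells) and myeloid-like (77.4% to 91.5%) also held such UMIs. The share therefore says little about the sort. Barcodes shared by cells of 2 libraries numbered 37 to 63, against 36.0 to 71.3 for barcodes drawn at random.

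Bcl3 itself (chromosome 7, 19808462 to 19822770, minus strand) was read first as a check of the labels. Levels were 33.2 CPM (WT1) and 27.6 CPM (KO1) in chimera 1, and 108 CPM (WT2) and 86.6 CPM (KO2) in chimera 2. The chimeras thus differed more than the genotypes, and WT and Bcl3-/- levels overlapped. On the log2 scale, Bcl3-/- over WT gave a fold change of −0.33 (SE 0.58, edgeR's quasi-likelihood test, adjusted p = 0.837). With chimera as a replicate block, which pairs the WT and Bcl3-/- cells of the same animal, it was −0.31 (edgeR, adjusted p = 0.0201). Transcripts tagged at a 3′ end outside the deleted part of the gene check nothing, and the sources used here do not give the deleted part.

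Over all cells, transcripts of OX40, 4-1BB, GITR and ICOS were lower in Bcl3-/- cells within each chimera, while that of CD27 was higher. Markers of cell states moved with the genotypes too. The 7 terminal effector genes, Zeb2 and Cx3cr1 among them, summed to 1355 CPM for WT1, 1698 for WT2, 2399 for KO1 and 2426 for KO2. The 16 cell cycle genes summed to 1011, 1038, 714 and 894 CPM in the same order. Their part in the differences of the receptors was not tested. The WT and Bcl3-/- libraries did not overlap for 7 of the 9 genes, with Tnfrsf4, Tnfrsf9, Tnfrsf18 and Icos lower and Cd27, Tnfrsf1a and Tnfrsf1b higher. The background for such a separation was high, as it held for 44.5% of the 11566 genes tested (25.7% higher, 18.8% lower). Without a block, edgeR called 42 of the 11566 genes at an adjusted p of 0.05 (0.363%) and none of the 9 receptors, 6 of which had an unadjusted p under 0.05, as did 1808 of all genes tested. With the replicate block it called 1116 genes at the same threshold (9.65%), and 6 of the 9 receptors, 4 lower (against 4.84% of all genes) and 2 higher (against 4.81%). DESeq2 called 203 genes (1.76%, and 0.614% lower), and of the receptors Tnfrsf4 and Tnfrsf9, both lower. Each chimera is 1 animal of an independent experiment and the libraries also differ in depth. Without the block, p-values measure the spread between these 4 libraries, whatever its source. With the block, they measure how alike the change from WT to Bcl3-/- was in the 2 chimeras, with little left to estimate a spread. In both fits edgeR shares its estimate of the spread between genes.

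**Figure D1:**
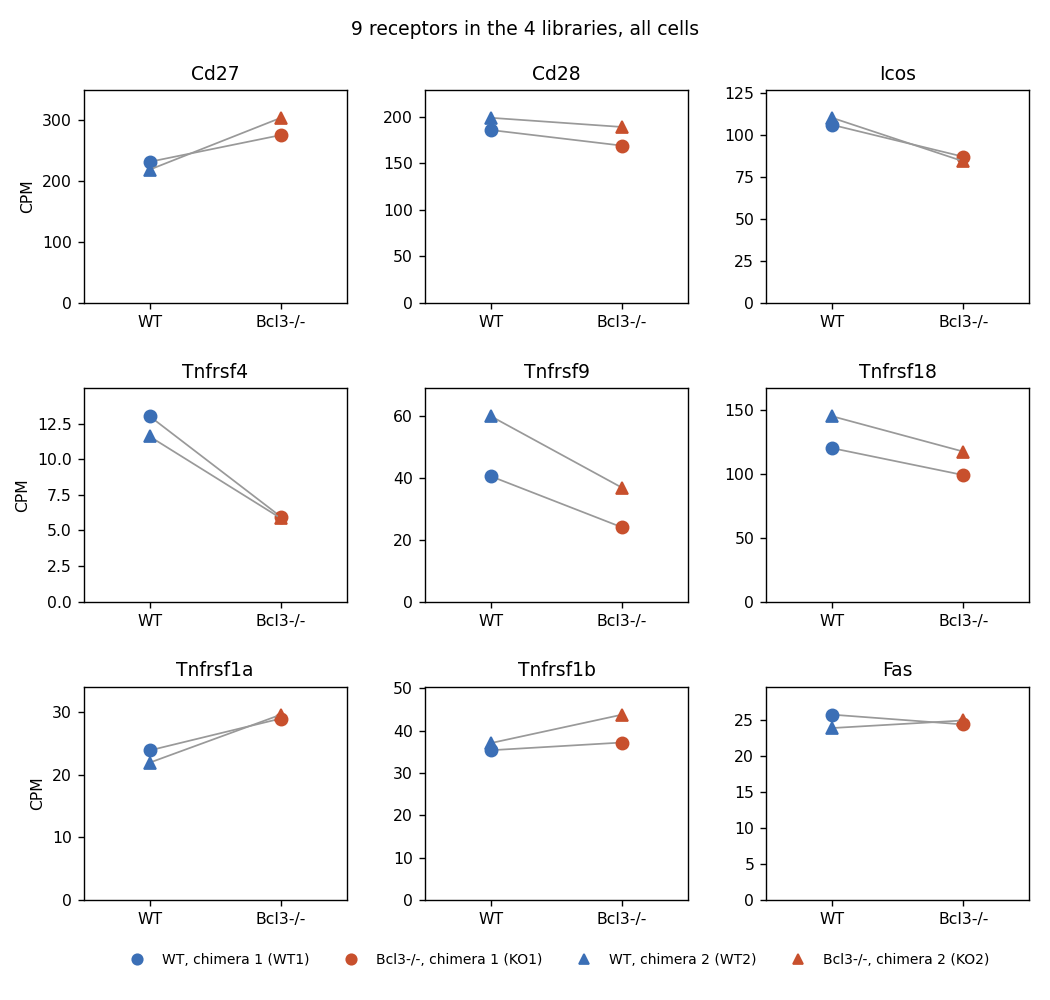
CPM of the 9 receptors over all cells of each library, with WT on the left and Bcl3-/- on the right of each panel and a line joining the libraries of a chimera. The lines fall in both chimeras for Tnfrsf4, Tnfrsf9, Tnfrsf18, Icos and Cd28, rise in both for Cd27, Tnfrsf1a and Tnfrsf1b, and cross near 25 CPM for Fas.

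Tnfrsf4, which encodes OX40, a receptor that sustains activated T cells after priming, was at 13.0 (WT1) and 11.6 CPM (WT2) in WT, and at 5.96 (KO1) and 5.85 CPM (KO2) in Bcl3-/- cells. These rest on 263, 223, 130 and 126 UMIs. Both WT libraries were above both Bcl3-/- libraries, and the spread within a genotype was small beside this gap. On the log2 scale the difference was −1.08 (SE 0.16), with an adjusted p of 0.0513 in edgeR without a block, 0.00083 with it (−1.07) and 0.00146 in DESeq2.

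Tnfrsf9 encodes 4-1BB, which is induced on CD8+ T cells by antigen and promotes their survival. It had 40.6 CPM in WT1 against 24.0 CPM in KO1, and 60.0 CPM in WT2 against 36.8 CPM in KO2. WT was higher within each chimera, and chimera 2 was higher than chimera 1 in either genotype, so that KO2 came close to WT1. The log2 fold change was −0.74 (SE 0.21, edgeR, adjusted p = 0.187). With the replicate block it was −0.75 (SE 0.08, edgeR, adjusted p = 8.7e-05).

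Tnfrsf18 encodes GITR, best known from regulatory T cells and also carried by effector cells. Chimera 1 had 120.4 CPM (WT1) and 99.3 CPM (KO1), and chimera 2 had 145 CPM (WT2) and 118 CPM (KO2). Both chimeras moved alike, and KO2 lay just below WT1. Its log2 fold change of −0.31 (edgeR, adjusted p = 0.253) was called only with the block (adjusted p = 0.0113 in edgeR). Icos, the inducible relative of CD28, had 106 CPM in WT1 and 110.3 CPM in WT2 against 87.1 CPM in KO1 and 84.4 CPM in KO2. The gap between the genotypes was larger than the spread within them, and the log2 fold change was −0.35 (edgeR, adjusted p = 0.161, and 0.0070 with the block).

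Cd27, whose product binds CD70 and is kept by cells with memory potential, moved the other way. It stood at 232 CPM in WT1 and 219 CPM in WT2, and at 275 CPM in KO1 and 304 CPM in KO2. All Bcl3-/- values were above all WT values, the gap being larger in chimera 2. On the log2 scale Cd27 was higher by 0.34 (SE 0.09, edgeR, adjusted p = 0.182, and 0.0066 with the block).

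Tnfrsf1a, the death-domain receptor for TNF, stood at 23.9 CPM for WT1, 22.0 CPM for WT2, 29.0 CPM for KO1 and 29.6 CPM for KO2. It was called higher with the block (log2 fold change 0.34, edgeR, adjusted p = 0.0423) but not without it (adjusted p = 0.223 in edgeR). Markers of myeloid cells moved with it. The 10 genes of the myeloid list, all of them detected, summed to 2877 CPM for WT1, 2629 CPM for WT2, 3905 CPM for KO1 and 4296 CPM for KO2. Lyz2 led the list in the WT libraries and S100a8 in the Bcl3-/- libraries. Myeloid-like cells made up 2.37%, 1.80%, 4.06% and 4.11% of the libraries in the same order, and Tnfrsf1a stood at 85.7 to 121 CPM in them. The myeloid-like clusters held the B cell list as well, at 16157 to 21726 CPM. Without clusters of other cell types, the log2 fold change of Tnfrsf1a with the block was 0.25 (edgeR, adjusted p = 0.155), and the other 5 of the 6 receptors were still called, against 11.4% of all genes.

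The remaining receptors did not pass the test in any of these fits. Cd28 stood at 186 CPM for WT1, 199 CPM for WT2, 169 CPM for KO1 and 189 CPM for KO2, its genotypes overlapping (log2 fold change −0.12, edgeR, adjusted p = 0.552). Tnfrsf1b, which encodes TNFR2, had 35.4 and 37.1 CPM in WT1 and WT2 and 37.2 and 43.8 CPM in KO1 and KO2, so that KO1 hardly differed from WT2 (log2 fold change 0.14, edgeR, adjusted p = 0.498). Fas lay between 23.9 and 25.8 CPM in all 4 libraries (log2 fold change −0.03, edgeR, adjusted p = 0.934).

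Clusters were found in each library separately without using the 9 receptors, and were named from marker genes. Precursor clusters, led by genes such as Tcf7 and Ccr7, held 334 cells for WT1, 443 for WT2, 123 for KO1 and 191 for KO2, taken at a coarser clustering because KO1 had no such cluster of at least 1% at the finer one. At the finer one, 72 of these KO1 cells lie among the clusters with no name. Terminal effector clusters, with Zeb2 and Cx3cr1, held 446, 1068, 1173 and 855 cells in the same order, interferon-stimulated clusters 307, 402, 348 and 357 and cell cycle clusters 813, 1043, 526 and 765. Clusters that met no list held 53.1% to 59.7% of each library. Cell cycle clusters also held transcripts of other cells, the myeloid list summing to 1617 CPM in WT1 but to 644 to 969 CPM in the other libraries (564 to 988 CPM in the other T cell states), and the erythroid list to 223 CPM in WT1, 120.1 CPM in WT2, 0.922 CPM in KO1 and 922 CPM in KO2. The part of such cells in the levels of these clusters was not tested. Small B-like and myeloid-like clusters were present in all 4 libraries and serve as a contrast. The levels below describe these clusters and were not tested between states, since cells are not replicates.

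**Figure D2:**
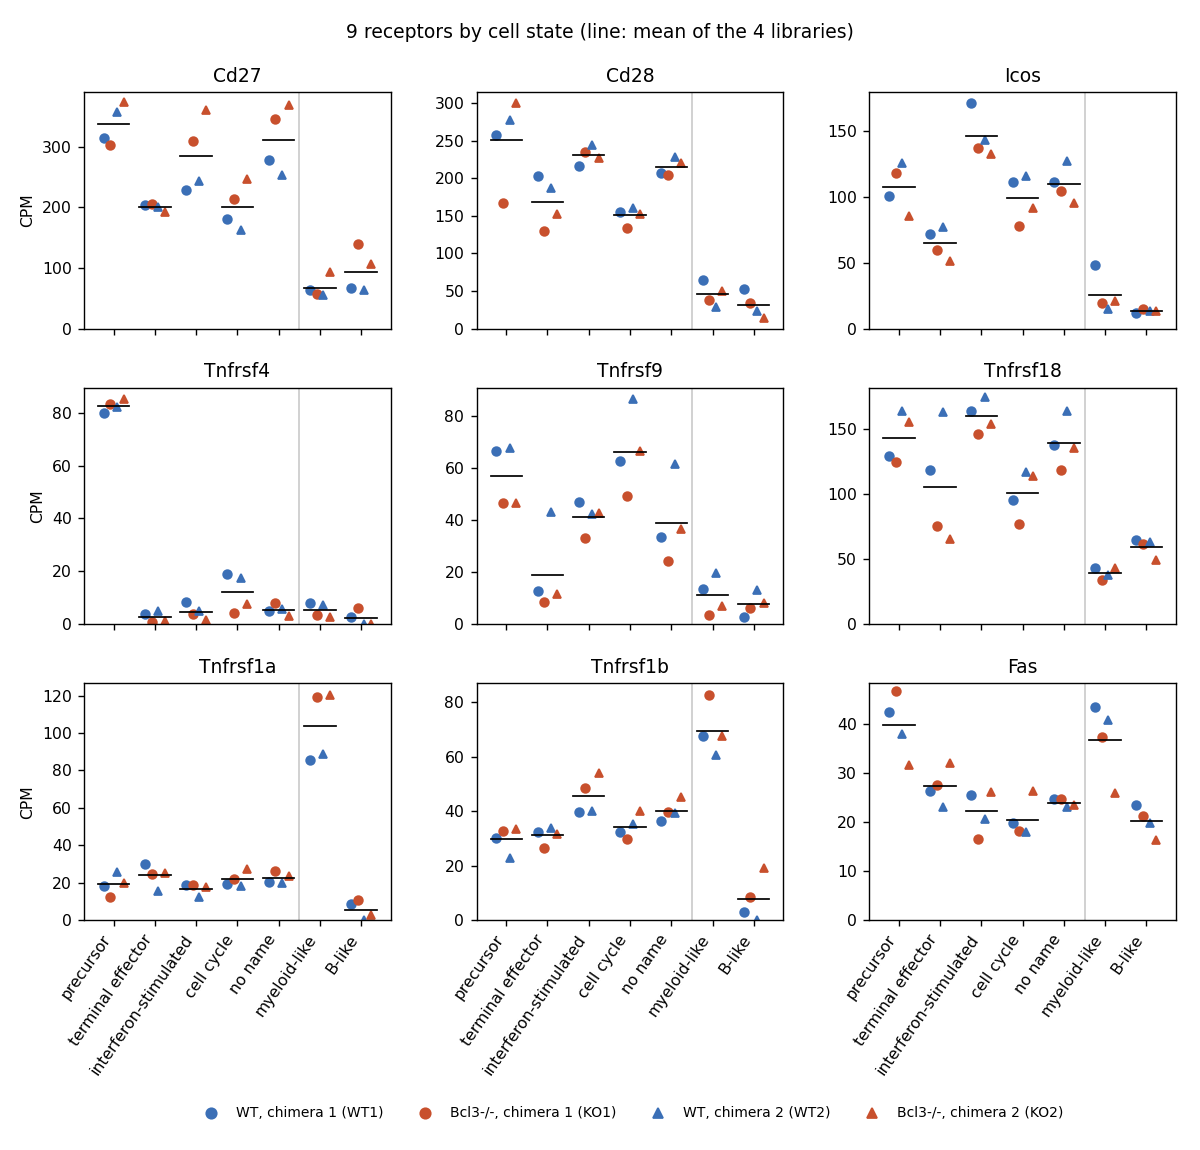
CPM of the 9 receptors in each state, 1 point per library (circles chimera 1, triangles chimera 2, blue WT, red Bcl3-/-), with a line at the mean of the 4 libraries and a grey line before the states of other cell types. Tnfrsf4 stands near 80 CPM in precursor clusters and under 20 CPM elsewhere, Tnfrsf18 splits by genotype among terminal effectors, and Tnfrsf1a stands at 85.7 to 121 CPM in the myeloid-like clusters.

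On average over the libraries, Cd27 and Cd28 were highest in precursor clusters. This did not hold in KO1. There Cd27 stood at 303 CPM in precursor and 345 CPM in unnamed clusters, and Cd28 at 167 CPM in precursor and 235 CPM in interferon-stimulated clusters. Cd27 averaged 337 CPM ± 33.9 (SD, n = 4 libraries) in precursor clusters and 311 ± 54.8 in clusters with no name. It averaged 285 ± 61.1 in interferon-stimulated cells, 201 ± 37.2 in cell cycle clusters and 200.4 ± 5.89 in terminal effectors. Each of these neighbours overlapped the next, and terminal effectors lay above B-like (93.9 ± 36.0) and myeloid-like cells (66.8 ± 17.5) without overlap. Cd28 averaged 251 ± 58.6 CPM in precursor, 231 ± 11.9 in interferon-stimulated and 215 ± 11.1 in unnamed clusters, which overlapped. It was lower in terminal effectors at 168 ± 33.1 CPM, just below the unnamed clusters, which it overlapped at the coarser clustering, and in cell cycle clusters at 151 ± 11.5, above myeloid-like (45.7 ± 15.5) and B-like cells (30.8 ± 16.7).

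On average, Icos and Tnfrsf18 were highest in interferon-stimulated cells. Icos averaged 146 ± 17.6 CPM there, above the clusters that follow, which it overlapped at the coarser clustering (124.6 to 146 CPM against 97.1 to 134 CPM in unnamed clusters). These were unnamed (109.5 ± 13.5), precursor (107 ± 18.0) and cell cycle clusters (99.1 ± 17.8). Terminal effectors, at 64.9 ± 11.5 CPM of Icos, lay below all of these and above myeloid-like (25.6 ± 15.1) and B-like cells (13.3 ± 1.28). At the coarser clustering terminal effectors reached 92.5 CPM. They then overlapped cell cycle clusters (from 76.4 CPM) and precursor clusters (from 85.2 CPM). Tnfrsf18 averaged 159 ± 12.3 CPM in interferon-stimulated cells, 143 ± 19.4 in precursor, 139 ± 18.7 in unnamed, 105 ± 44.7 in terminal effector and 101 ± 18.8 in cell cycle clusters. Neighbours in this order overlapped, and the wide spread among terminal effectors follows the genotypes, as described below. B-like cells, at 59.4 ± 7.06 CPM of Tnfrsf18, were not far below.

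Tnfrsf9 averaged 66.5 ± 15.5 CPM in cell cycle clusters, some of which had more leading markers of another cell type than of their own, and overlapped there with precursor clusters (57.0 ± 11.8). These were followed, with overlap, by interferon-stimulated (41.3 ± 5.80), unnamed (39.1 ± 15.9) and terminal effector clusters (19.0 ± 16.1). In myeloid-like (11.1 ± 7.18) and B-like cells (7.67 ± 4.31) it was near the lowest terminal effector values. Tnfrsf1a was at 103.6 ± 18.8 CPM in the myeloid-like clusters, which also hold B cell transcripts. T cell states ran from 23.9 ± 6.04 in terminal effectors to 16.8 ± 3.24 in interferon-stimulated cells, and states next to each other by mean overlapped. Interferon-stimulated cells (12.1 to 19.0 CPM) lay below unnamed clusters (19.5 to 26.4 CPM) without overlap. The mean of Fas was highest in precursor clusters (39.7 ± 6.42 CPM), overlapping myeloid-like cells (36.8 ± 7.75). Fas lay between 20.2 and 27.2 CPM on average in the other states, where neighbours overlapped. Its lowest precursor value, 31.7 CPM, was above the highest in cell cycle clusters, 26.3 CPM. Tnfrsf1b averaged 69.6 ± 9.36 CPM in the same myeloid-like clusters. Among T cell states its mean ran from 45.5 ± 7.02 CPM in interferon-stimulated cells to 29.6 ± 4.89 in precursor clusters.

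Tnfrsf4 stood apart by state. Precursor clusters had 79.9 CPM in WT1, 83.4 CPM in KO1, 82.3 CPM in WT2 and 85.2 CPM in KO2, while no library exceeded 18.9 CPM in another state. Cell cycle clusters followed with 18.9 and 17.6 CPM in WT1 and WT2 and 4.30 and 7.79 CPM in KO1 and KO2. Some cell cycle clusters had more leading markers of another cell type than of their own, so the genotype test of this difference is not reported. In the other T cell states Tnfrsf4 was at most 8.25 CPM, and its level in terminal effectors rested on 3 to 10 UMIs per library.

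The genes of a list for CD4 T cells moved with Tnfrsf4 in the precursor clusters. Over all cells, Ikzf2 was the most abundant of them in each library, at 3.39 to 8.22 CPM. The list of Cd4, Foxp3, Cd40lg and Ikzf2 summed to 59.1 and 63.8 CPM in the precursor cells of WT1 and WT2 and to 71.2 and 95.2 CPM in those of KO1 and KO2, against 7.24 to 12.4 CPM over all cells, with Cd4 or Ikzf2 the most abundant and Foxp3 without a UMI in WT2. Precursor cells with a UMI of the list numbered 45 for WT1, 50 for WT2, 19 for KO1 and 28 for KO2, and held 68 of 96, 31 of 80, 29 of 41 and 44 of 51 of the precursor UMIs of Tnfrsf4. Among these cells Tnfrsf4 reached 373 CPM for WT1, 264 for WT2, 391 for KO1 and 490 for KO2. Most of the same cells held CD8 UMIs (93.3%, 76.0%, 89.5% and 82.1%). The share was higher in each library in precursor cells without a list UMI (96.2%, 92.9%, 94.2% and 94.5%). B-like cells, which the sort should leave out, held a CD8 UMI in 51.7% to 80.6%. Precursor cells with a Cd4 UMI and no CD8 UMI numbered 0 for WT1, 8 for WT2, 1 for KO1 and 1 for KO2. A UMI of the list thus does not by itself name a cell as a CD4 T cell.

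Precursor cells with no UMI of the CD4 list had 27.5 CPM of Tnfrsf4 in WT1 and 57.3 CPM in WT2, and 28.7 CPM in KO1 and 13.8 CPM in KO2. These values rest on 28, 49, 12 and 7 UMIs. The level in these cells was therefore lower than in the whole clusters in each library, yet above that outside the precursor clusters, which was 8.79 for WT1, 7.84 for WT2, 4.17 for KO1 and 3.58 CPM for KO2. Tnfrsf9 was also higher in the cells with a list UMI, at 159 CPM for WT1, 187 for WT2, 80.9 for KO1 and 55.6 for KO2. These values rest on 29, 22, 6 and 5 UMIs. The other precursor cells had 40.7 to 51.5 CPM of Tnfrsf9, with 45.2 CPM in KO2. The split was chosen after the values had been seen, and the part of CD4 T cells in the level of Tnfrsf4 was not tested.

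**Figure D3:**
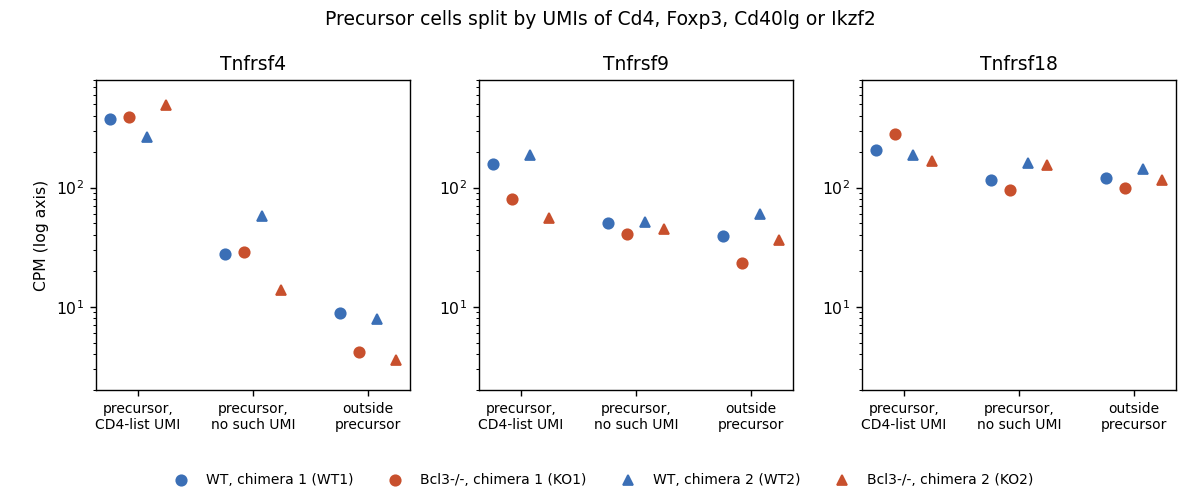
CPM on a log axis of Tnfrsf4, Tnfrsf9 and Tnfrsf18 in precursor cells with a UMI of the CD4 T cell list, in precursor cells without one and in cells outside the precursor clusters, 1 point per library. Tnfrsf4 falls from 264 to 490 CPM over 13.8 to 57.3 CPM to 3.58 to 8.79 CPM, while Tnfrsf18 shifts less.

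The comparison of Tnfrsf4 over all cells was repeated without these cells, a choice made after the values had been seen. Precursor cells made up 6.76% of WT1, 5.475% of WT2, 2.29% of KO1 and 2.94% of KO2. With all precursor cells left out, the log2 fold change was −1.11 (edgeR, adjusted p = 0.0887), and −1.12 with the block (edgeR, adjusted p = 0.00014), where the same 6 receptors were called as before, against 11.7% of all genes. With every cell that held a UMI of the CD4 list left out, it was −1.36 (edgeR, adjusted p = 0.0464), and −1.36 with the block (edgeR, adjusted p = 4.6e-05). The same 6 receptors were again called with the block, against 11.2% of all genes.

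Within states, the genotypes were compared on UMIs summed per library and state. This was done for terminal effector, interferon-stimulated, unnamed and precursor clusters. Genotype tests within cell cycle and myeloid-like clusters are not reported, because some of these clusters had more markers of another cell type than of their own among their leading genes.

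In terminal effector clusters, Tnfrsf18 was lower in Bcl3-/- cells without a block. WT cells had 118 CPM (WT1) and 162 CPM (WT2), and Bcl3-/- cells 74.9 CPM (KO1) and 65.1 CPM (KO2). The genotypes did not overlap, and the Bcl3-/- libraries lay near the level of B-like cells. The log2 fold change was −1.02 (SE 0.17), with an adjusted p of 0.00558 in edgeR, where 1.02% of the 8200 genes tested were called (0.476% lower) and Tnfrsf18 was the only one of the 8 receptors tested. With the block it was −1.02 (edgeR, adjusted p = 2.0e-10). With a library left out it ran from −1.19 to −0.81 without the block, and was called each time. DESeq2 called it too (−1.02, adjusted p = 0.00555). The clusters were made in each library separately, and the 7 marker genes of the terminal effector list moved with the genotypes in them, summing to 5574 CPM for WT1, 6963 for WT2, 8142 for KO1 and 11545 for KO2. The part of this difference in the level of Tnfrsf18 was not tested.

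With the replicate block, 3 receptors were called in terminal effectors, all lower, against 5.30% of all genes in either direction and 2.88% lower. Tnfrsf9 and Cd28 were the others. Tnfrsf9 stood at 12.8 CPM for WT1, 43.1 CPM for WT2, 8.41 CPM for KO1 and 11.7 CPM for KO2. WT2 alone stood high, and WT1 was hardly above KO2. The log2 fold change was −1.62 (SE 0.39, edgeR, adjusted p = 0.0668, and 1.7e-05 with the block), and −0.45 without WT2 (edgeR, adjusted p = 0.895). Cd28 had 203 CPM in WT1 and 187 CPM in WT2 against 130.0 CPM in KO1 and 152 CPM in KO2, which did not overlap (log2 fold change −0.50, edgeR, adjusted p = 0.130, and 0.0027 with the block). Icos was at 71.6 and 76.8 CPM in WT1 and WT2 and at 59.6 and 51.5 CPM in KO1 and KO2 (log2 fold change −0.43, edgeR, adjusted p = 0.263). Cd27 lay between 192 and 205 CPM in all 4 libraries, its log2 fold change being −0.05 (edgeR, adjusted p = 0.939). Tnfrsf4 was below the filter on low counts.

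**Figure D4:**
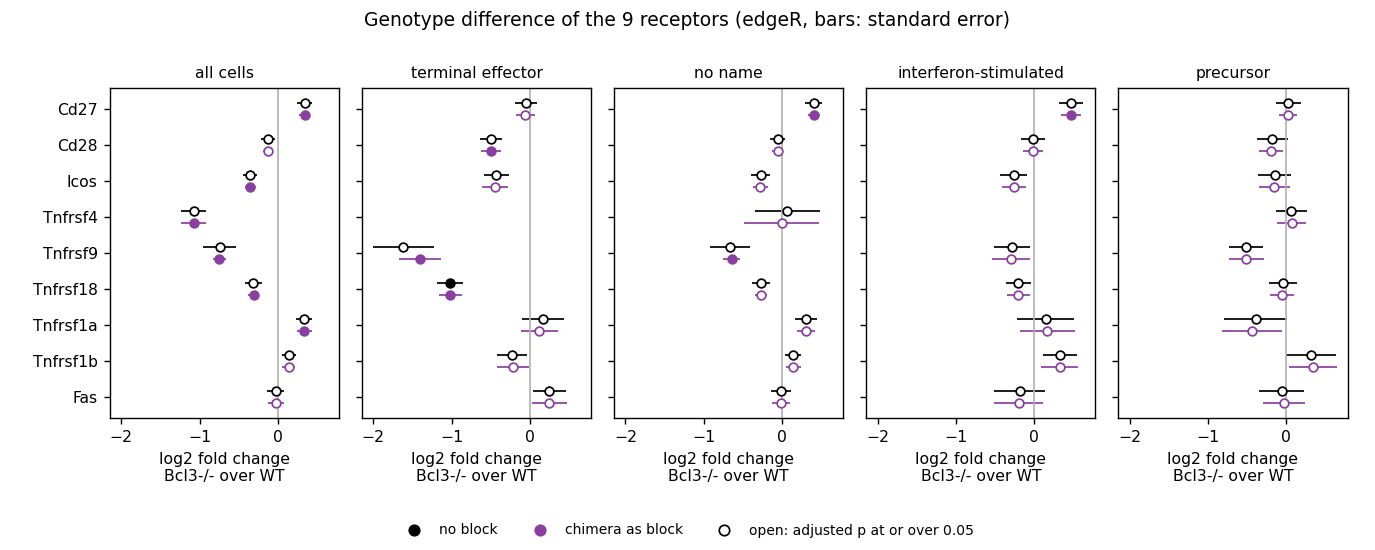
Log2 fold change of Bcl3-/- over WT for each receptor with its standard error, from edgeR without a block (black) and with chimera as a block (purple), filled where the adjusted p was under 0.05. Tnfrsf18 in terminal effectors is the one filled black point. Cd27 is filled with the block in all cells, in clusters with no name and in interferon-stimulated cells.

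Outside the terminal effectors, no receptor was called without a block, where edgeR called 0.281% of genes in unnamed, 0.662% in interferon-stimulated and 0.481% in precursor clusters. Of the receptors, 4 in unnamed, 1 in interferon-stimulated and 1 in precursor clusters had an unadjusted p under 0.05, as did 1125 of 10338, 602 of 7098 and 498 of 6442 genes, and DESeq2 called none of the receptors in these states. With the block, Cd27 was higher and Tnfrsf9 lower in unnamed clusters, against 4.63% of all genes called (2.45% higher and 2.19% lower). Cd27 stood at 278 CPM for WT1, 253 CPM for WT2, 345 CPM for KO1 and 369 CPM for KO2 there. WT and Bcl3-/- were well apart (log2 fold change 0.41, edgeR with the block, adjusted p = 0.0061). The 9 genes of the precursor list moved the same way in these clusters, at 452 CPM for WT1, 441 for WT2, 518 for KO1 and 518 for KO2. Their part in the level of Cd27 was not tested. Tnfrsf9 had 33.6 CPM in WT1 with 24.5 CPM in KO1, and 61.7 CPM in WT2 with 36.6 CPM in KO2, so that KO2 exceeded WT1 (log2 fold change −0.64, edgeR with the block, adjusted p = 0.0036). Without a block, its log2 fold change of −0.66 became −0.20 when WT2 was left out and −1.01 when WT1 was. In interferon-stimulated cells Cd27 was called with the block, against 3.01% of all genes (1.54% higher). Its level was 228 CPM for WT1, 243 CPM for WT2, 309 CPM for KO1 and 360.3 CPM for KO2, and both Bcl3-/- libraries were above both WT libraries (log2 fold change 0.47, edgeR, adjusted p = 0.0099).

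In precursor clusters no receptor was called with the block either (1.07% of all genes). Tnfrsf9 had 66.6 CPM in WT1 and 67.9 CPM in WT2 against 46.8 CPM in both Bcl3-/- libraries, and the log2 fold change was −0.51 (SE 0.22, edgeR, adjusted p = 0.588). Cd27 and Tnfrsf18 overlapped between the genotypes there. In precursor cells without a UMI of the CD4 list, the log2 fold change of Tnfrsf4 was −0.99 (SE 0.44, edgeR, adjusted p = 0.640), against 0.07 (SE 0.19, edgeR, adjusted p = 0.961) in the whole clusters.

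Whether the difference between genotypes itself differed between states was tested in 1 fit over the states present in all 4 libraries at the finer clustering, which leaves out the precursor clusters, each state against the unnamed clusters, with library as a term because sums of 1 library share it. No receptor passed. For terminal effectors edgeR called 16 of 8835 genes (0.181%), and 5 receptors had an unadjusted p under 0.05, as did 490 genes. The largest of these by its test was Tnfrsf18, whose log2 fold change in terminal effectors was lower by 0.74 than in unnamed clusters (SE 0.17, edgeR, adjusted p = 0.0716), followed by Cd27 at −0.46 (SE 0.14, edgeR, adjusted p = 0.411) and Tnfrsf9 at −0.90 (SE 0.31, edgeR, adjusted p = 0.511). For interferon-stimulated cells edgeR called no gene (0.00%, with 305 genes at an unadjusted p under 0.05), and no receptor had an unadjusted p under 0.05. DESeq2 was not run on this comparison.

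At the coarser clustering, Tnfrsf18 (−0.79, edgeR, adjusted p = 0.0020) and Cd27 (−0.66, edgeR, adjusted p = 0.0070) were called for terminal effectors, among 65 of 8682 genes. The classes were made differently there, as terminal effectors then held 1923 cells (38.9%) of WT1 but 15.4% to 18.0% of the other libraries, and unnamed clusters 29.2% of WT1 but 56.2% to 56.8% of the others. The log2 fold changes of both were then lower in terminal effectors than in the unnamed clusters. For precursor cells at that clustering, edgeR called no gene (0.00%, with 363 genes at an unadjusted p under 0.05), with Cd27 at −0.42 (SE 0.15, unadjusted p = 0.0087 in edgeR) the 1 receptor under 0.05.

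Shares of cells with a UMI were compared after each cell had been thinned to 1000 UMIs, because depth differs between the libraries. A UMI of Cd27 was found in 21.0% of cells for WT1, 21.2% for WT2, 24.5% for KO1 and 27.0% for KO2. Of B-like cells, which the sort should leave out, 6.67%, 6.25%, 12.7% and 9.45% held one, although some B cells carry CD27 themselves. A CD8 UMI was found in 51.7% to 80.6% of B-like cells, and free RNA, doublets and expression by these cells cannot be told apart in their shares. Unthinned, cells had median depths of 2019 to 3620.5 UMIs and B-like cells of 2025.5 to 2901 UMIs. Tnfrsf9 was found in 3.60% of cells for WT1, 5.67% for WT2, 2.07% for KO1 and 2.92% for KO2, and in none of 105, 112, 134 and 127 B-like cells, which allows shares of up to 2.86%, 2.68%, 2.24% and 2.36%. In KO1 the share of all cells thus lay under what these few B-like cells can show.

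Tnfrsf18 was found in 11.7% of cells for WT1, 14.1% for WT2, 9.53% for KO1 and 11.3% for KO2. Its share in B-like cells was closer, at 5.71%, 4.46%, 8.21% and 7.09%, with exact 95% binomial intervals that reach 14.2% in KO1 and 13.0% in KO2 and so include the share of all cells there. Tnfrsf4 was found in 0.895%, 0.686%, 0.430% and 0.432% of cells of WT1, WT2, KO1 and KO2, all under the limit that no B-like cell allows. These intervals and limits cover counting error only. Droplets with at most 100 UMIs also held the receptors, with Cd27 at 199 CPM for WT1, 182 for WT2, 263 for KO1 and 362 for KO2. Tnfrsf4 stood there at 13.2 for WT1, 10.9 for WT2, 11.9 for KO1 and 8.24 CPM for KO2, which rest on 10, 7, 12 and 8 UMIs. The part of free RNA in the differences between genotypes was not tested.

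**Figure D5:**
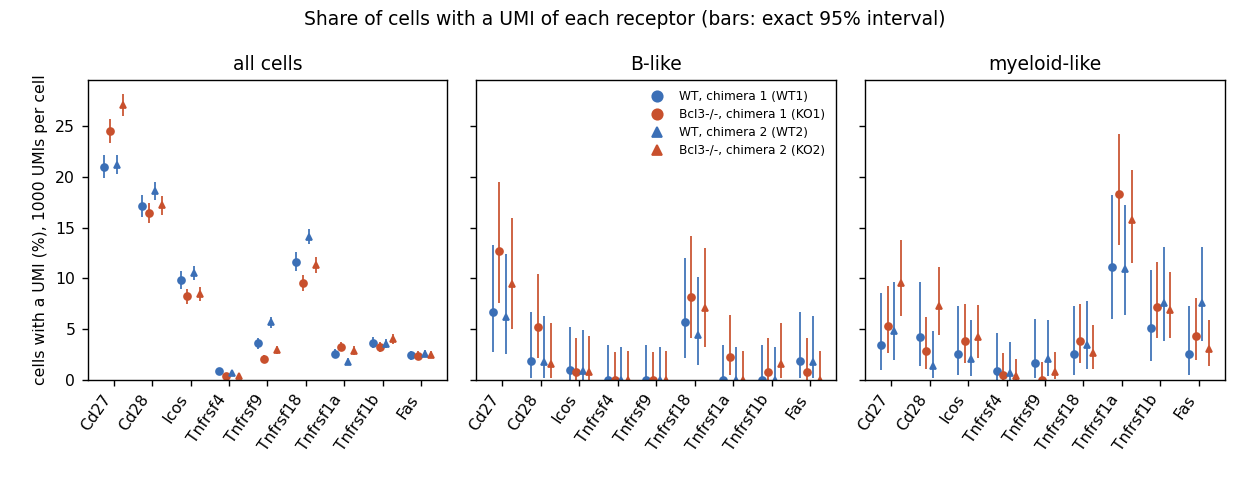
Share of cells with a UMI of each receptor after thinning to 1000 UMIs per cell, in all cells, B-like and myeloid-like cells, with exact 95% binomial intervals, 1 point per library. Cd27, Cd28 and Icos are well above B-like cells in every library, and Tnfrsf18 less so.

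Across the 20 sums of 5 T cell states in 4 libraries, Cd28 and Tnfrsf18 moved most alike among the receptors (Pearson r = 0.81 on log2 CPM), followed by Icos and Tnfrsf18 (0.73) and Cd27 and Cd28 (0.70). Icos and Tnfrsf1a ran most against each other (r = −0.49). Of 6859 genes over 10 CPM, Psme1 (0.92), Ltb (0.91) and Cxcr3 (0.90) had the pattern most like Tnfrsf18. Those most like Tnfrsf9 were Pdcd1 (0.90), Vars (0.86) and Tmx2 (0.86), and those most like Cd28 were Dguok (0.90), Akap13 (0.88) and Traf1 (0.87). For Cd27 they were Fam78a (0.87), Dgka (0.84) and Hvcn1 (0.84), and for Icos Dbnl (0.88), Ly6a (0.86) and Psme2 (0.86). Pdrg1 (0.86) and Lef1 (0.83) were among those for Fas. For Tnfrsf1b they were Ildr1 (0.83), Tapbpl (0.82) and Adam19 (0.82), and for Tnfrsf1a Fbxl8 (0.76), D5Ertd579e (0.76) and Ubqln1 (0.75). Sums of 1 library share its depth and its preparation, so these values describe likeness only. Tnfrsf4 averaged under 10 CPM and was not compared with other genes.

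The ligands, other TNF receptors, adaptors and NF-kB proteins of the pathway were read from lists over all cells. These lists and the genes named from them (those called, and the most abundant) were chosen as the receptors were, with results of these data known. Without a block, edgeR called no gene of these lists (0.363% of all genes), while 4 ligands, 1 other receptor, 2 adaptors and 3 NF-kB genes had an unadjusted p under 0.05 and DESeq2 called Nfkb2. With the block, 3 of 10 ligands tested were called, against 9.65% of all genes. Ltb, which encodes lymphotoxin beta, stood at 807 CPM for WT1, 1142 for WT2, 587 for KO1 and 798 for KO2, lower in both chimeras (log2 fold change −0.50, edgeR, adjusted p = 0.00050). Cd86, a ligand of CD28 made by antigen-presenting cells, had 25.1, 49.5, 20.7 and 32.5 CPM in the same order, lower in both chimeras while the genotypes overlapped (−0.47, edgeR, adjusted p = 0.0117). Tnfsf9, which encodes the ligand of 4-1BB, had 3.02 and 2.24 CPM in WT1 and WT2 and 4.58 and 7.01 CPM in KO1 and KO2 (1.10, edgeR, adjusted p = 0.0102). Its direction was thus the reverse of that of its receptor. The abundant ligand genes Fasl (−0.04) and Cd80 (−0.39) were not called with the block (edgeR, adjusted p = 0.861 and 0.151).

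Of 15 other TNF receptors tested, 1 was called with the block, against 9.65% of all genes. Tnfrsf25, which encodes death receptor 3, stood at 39.8 CPM for WT1, 27.5 for WT2, 31.3 for KO1 and 22.0 for KO2, so that it fell within each chimera while the genotypes overlapped (log2 fold change −0.35, edgeR, adjusted p = 0.0278). Tnfrsf13b, Tnfrsf13c and Relt were not called. None of 26 adaptor and signalling genes was called with the block in edgeR (5 at an unadjusted p under 0.05, against 2790 of all 11566 genes) or by DESeq2, among them the abundant Lck, Rbck1, Prkcq and Grb2, the first at 1077 to 1284 CPM.

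Of the 11 NF-kB genes, 4 were called lower with the block (against 4.84% of all genes) and none higher, while none was called by edgeR without it. Nfkb2, which encodes p100, had 37.9 CPM in WT1 and 45.6 in WT2 against 25.6 in KO1 and 31.3 in KO2 (log2 fold change −0.57, edgeR, adjusted p = 0.00099). Relb, whose product pairs with that of Nfkb2, had 31.7 and 30.9 CPM in WT1 and WT2 against 23.2 and 23.3 in KO1 and KO2 (−0.44, edgeR, adjusted p = 0.0093). The genotypes did not overlap for either gene. Nfkbia, the gene of the inhibitor IkB-alpha (−0.35, edgeR, adjusted p = 0.0048), and Bcl3 itself were the others, and Nfkbib and Rela were not called. The median log2 fold change without a block was −0.12 over the 9 receptors, −0.04 over ligands, 0.03 over other TNF receptors, 0.09 over adaptors, −0.17 over NF-kB genes and 0.01 over all genes tested.

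Among terminal effectors, 2 of the 46 genes of these lists that were tested were called without a block, against 1.02% of all genes. They were Ltb (log2 fold change −1.35, edgeR, adjusted p = 0.00102) and Nfkb2 (−1.15, edgeR, adjusted p = 0.0416), and DESeq2 called Ltb alone. With the block edgeR called 5 of the 46, which were Fasl, Ltb, Nfkb2, Nfkbia and Traf1, against 5.30% of all genes.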

How the data were processed

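Per the labels and the study's methods, the authors sorted CD8+ tetramer+ cells, prepared droplet libraries (10x 3′ v2) and deposited the raw counts of UMIs for each gene and barcode, without normalization. The submitters' processing notes name bcl2fastq 2.17, Cell Ranger 2.2.0 and the mm10 build. All 4 libraries were used. Cells needed at least 500 genes, with mitochondrial UMIs at most 10%. No doublet caller was run. As in the study, clusters that held under 1% of their library entered no state.

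Each library was clustered with Seurat 5.3.0 (15 principal components, 2000 variable genes without the 9 receptors, 20 neighbours, resolution 0.8, alternative 0.5). A cluster was named when at least 3 genes of a list were at least 2-fold above other cells and found in at least 10% of its cells, and 1 was among its 10 leading genes. UMIs were summed per library, or per library and state, filtered on low counts and tested with edgeR 4.0.16 (TMM, quasi-likelihood, Benjamini-Hochberg over all genes tested), with DESeq2 1.42.0 as an alternative. The tests were checked on simulated data, with an outcome that is not reported here. Same-numbered WT and Bcl3-/- cells came from the same chimera, and the differences between chimeras correlated between the genotypes (r = 0.466 over 6425 genes), so that chimera entered as a replicate block in an alternative fit, while the study's methods state none. The receptors, lists and marker genes were chosen with earlier results of these data known, all 9 receptors were described, and the 3 genes most like each were named by Pearson correlation of log2(CPM + 1), except 1 gene that is not reported here. Positions come from GENCODE vM21. Other alternatives left out a library, cells under 800 genes, other cell types, precursor cells or cells with CD4 T cell genes.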

Additional observations from a re-analysis of the deposited data

How the results depend on the processing

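With chimera as a replicate block, which pairs the cells of the same animal, edgeR called 1116 genes over all cells against 42 without it, and 6 receptors against 0. It called 435 genes and 3 receptors against 84 and 1 in terminal effectors, 214 and 1 against 47 and 0 in interferon-stimulated cells, 479 and 2 against 29 and 0 in unnamed clusters, and 69 genes against 31 in precursor clusters, where the receptors stayed at 0. DESeq2 called 203 genes and 2 receptors over all cells, 46 genes and 1 receptor, Tnfrsf18, in terminal effectors, 14 in interferon-stimulated and 82 in unnamed clusters. Leaving out 1 library gave 40 to 228 genes and 0 to 2 receptors over all cells, 120 to 273 and 1 to 2 in terminal effectors, 63 to 192 genes in interferon-stimulated, 41 to 156 in unnamed and 21 to 79 in precursor clusters, the lone library of a genotype being assumed to vary like the others. Without WT1, Tnfrsf4 (log2 fold change −0.96, edgeR, adjusted p = 0.0332) and Tnfrsf9 (−0.98, adjusted p = 0.0265) were called over all cells, and without KO1 Tnfrsf4 was (−1.14, adjusted p = 0.0300), while no receptor was without WT2 or without KO2. Tnfrsf9 over all cells, at −0.74, was −0.48 without WT2, and in unnamed clusters, at −0.66, it was −0.20. In terminal effectors Tnfrsf9 was called without WT1 (−2.12), KO1 (−1.39) or KO2 (−1.79), but not without WT2 (−0.45).

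With cells of at least 800 genes, 45 genes and 1 receptor, Tnfrsf4, were called over all cells, and 16 genes without other cell types. At resolution 0.5, 136 genes were called in terminal effectors and 81 in interferon-stimulated cells, and with all variable genes used for clustering 52 in terminal effectors and 48 in precursor clusters. With markers at 1.5-fold, 6 genes were called in precursor clusters. The difference of terminal effectors from unnamed clusters gave 16 genes and no receptor, 65 and 2 at resolution 0.5, and 1 to 12 genes with 1 library left out.

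Other alternatives that left out cells were chosen after seeing the data. Without other cell types and with the block, 1278 genes and 5 receptors were called over all cells. Without precursor cells and with the block it was 1342 genes and 6 receptors. Without cells with CD4 T cell genes 42 genes and 1 receptor were called, and with the block 1291 genes and 6 receptors, and 96 genes in precursor clusters. Fas, at −0.03, turned to 0.0553 without WT1 (−0.114 without WT2), 0.0079 without KO2, 0.0097 without other cell types (0.0118 with the block) and 0.005 without precursor cells (0.0065 with the block), and Tnfrsf1b to −0.0046 in thinned cells. Tnfrsf4 in precursor clusters, at 0.07, turned to −0.0227 with all variable genes, −1.07 with markers at 1.5-fold (where the KO1 class held 833 cells in place of 123), −0.99 without cells with CD4 T cell genes and −1.02 with the block as well. The cause was not tested. With 1 animal per chimera and 2 chimeras, an adjusted p that missed the threshold does not show equal levels, and shares of cells with a UMI moved with the depth to which cells were thinned.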

Other observations

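Tnfrsf4 was among the 10 leading genes of the precursor clusters in all 4 libraries, although the receptors had been left out of the clustering. In KO1 Cd4 was among them too. In KO2 Izumo1r, which encodes a folate receptor known from regulatory and anergic CD4 T cells, was among them. Both were named after their values had been seen.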
